A study of Mus musculus with 4 samples.

Results

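Medullary thymic epithelial cells (mTECs) are stromal cells of the inner thymus that show self antigens to developing T cells. Macrophages share that space with them, and they engulf the thymocytes that die there. The 10 genes described here, C1qa, C1qb, C1qc, Lyz1, Lyz2, Csf1r, Cd68, Marco, Cd5l and Cd163, are genes by which macrophages are commonly recognised, and their transcripts were read in sorted mTECs. They were taken by symbol, and all 10 were among the 23337 genes of the count table, had reads in every library and were among the 18547 genes tested.

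The libraries came from mTECs of 4-week-old C57BL/6 mice, sorted as CD45-EpCAM+UEA-1+Ly51- thymic cells, with 2 libraries of wild type (WT) mice and 2 libraries labelled Sirt6-/- (Sirt6 cKO). In the Sirt6 cKO mice a Foxn1-Cre transgene deletes the loxP-flanked Sirt6 gene in Foxn1-expressing cells, so that thymic epithelium is targeted and macrophages, which arise from blood-forming cells, are not the intended target. The WT controls were littermates or age-matched mice without Cre. The 2 samples of each group were prepared in parallel and independently, but how many mice went into each sample was not given in the sources used here, and p-values measure the spread between these samples.

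Total counts lay between 61102704 and 65907745 per library. Sirt6, the deacetylase gene that the cross targets, had 622 and 755 reads in WT 1 and WT 2 and 882 and 835 reads in Sirt6 cKO 1 and 2. Reads of Sirt6 were thus not fewer under the Sirt6 cKO label (log2 fold change 0.37, SE 0.32, edgeR quasi-likelihood test with Benjamini-Hochberg adjustment, adjusted p = 0.80). A count over the whole gene does not show which exons were read, and the direction of every difference below rests on the labels of the libraries. Ptprc, which encodes the CD45 protein that the sort selects against, had 23695 and 16820 reads in WT 1 and 2 and 26127 and 20558 reads in Sirt6 cKO 1 and 2. Epcam, which encodes the epithelial protein that the sort selects for, had 49643 to 72374 reads per library. None of the 14 mTEC markers was at 0 in any library. The same held for the 8 markers of cortical epithelium, so that presence of reads does not tell medullary from cortical epithelium.

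Most of the 10 macrophage genes were present at a higher level in the WT libraries. C1qa, C1qb and C1qc, the 3 chains of complement component C1q, were 2.75, 2.94 and 3.82 times as high in WT as in Sirt6 cKO by mean CPM, the read count scaled to the size of the library. Cd68, a glycoprotein of macrophage lysosomes, was 2.38 times as high, and Lyz2, the lysozyme of macrophages, was 2.03 times as high. Marco, a scavenger receptor, and Cd5l, a protein secreted by tissue macrophages, had overlapping groups. The 5 genes named first, the C1q chains, Lyz2 and Cd68, were lower in Sirt6 cKO at an unadjusted p under 0.05, beside 3.32% of all genes tested (615 of 18547). Of the 10, 0 were higher, beside 5.27% of all genes (977 of 18547). The cells that these reads came from were not tested. In such bulk samples, fewer of the cells that hold these transcripts, macrophages or others, and less transcript per cell cannot be told apart.

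C1q is the recognition part of the classical complement pathway, built from A, B and C chains that are made in the same cell, chiefly in macrophages and immature dendritic cells. Lysozyme breaks the bacterial cell wall, and in mice it is encoded by neighbouring copies, of which Lyz2 serves macrophages and neutrophils and Lyz1 the Paneth cells of the gut. Csf1r is the receptor through which Csf1 and Il34 keep macrophages alive. Marco and Cd163 are scavenger receptors for bacteria and polyanions and for haptoglobin-bound haemoglobin, respectively.

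The genes of the C1q chains lie side by side on chromosome 4 of GRCm38 and are all read from the minus strand (C1qb at chr4:136880129-136886187, C1qc at chr4:136889804-136893065, C1qa at chr4:136895917-136898803). Lyz1 and Lyz2 lie next to each other on chromosome 10, also on the minus strand (Lyz2 at chr10:117277331-117282321, Lyz1 at chr10:117287797-117292868). Cd68 (chr11:69664213-69666153) and Marco (chr1:120474538-120505024) are on the minus strand, and Cd5l (chr3:87357881-87371073) and Cd163 (chr6:124304656-124330527) are on the plus strand. For these 9 genes, no exon of another gene in the GENCODE M21 annotation overlapped theirs.

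The pair of lysozyme genes is so alike that reads can be shared between them, which is why their sequences are shown. Over the 444 coding bases without the stop codon, Lyz1 and Lyz2 differed at 22 bases, and the longest run without a difference was 118 bases. Of the 50-base words of the Lyz1 transcript, 16.1% also occurred in Lyz2, and of those of Lyz2, 15.4% occurred in Lyz1. Among the other members the corresponding share with any other gene was 0.091% for Cd163 and 0% for the rest, so that the split between Lyz1 and Lyz2 is the uncertain one. The first 240 coding bases, read 5′ to 3′ from the transcripts of GENCODE M21 on the minus strand of GRCm38, hold 17 of the 22 differences, printed in capitals.
Lyz1: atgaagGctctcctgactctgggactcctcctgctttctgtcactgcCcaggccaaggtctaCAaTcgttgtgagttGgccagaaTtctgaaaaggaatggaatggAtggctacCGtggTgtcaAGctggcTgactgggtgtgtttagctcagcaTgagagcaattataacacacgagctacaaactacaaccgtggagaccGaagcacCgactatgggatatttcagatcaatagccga
Lyz2: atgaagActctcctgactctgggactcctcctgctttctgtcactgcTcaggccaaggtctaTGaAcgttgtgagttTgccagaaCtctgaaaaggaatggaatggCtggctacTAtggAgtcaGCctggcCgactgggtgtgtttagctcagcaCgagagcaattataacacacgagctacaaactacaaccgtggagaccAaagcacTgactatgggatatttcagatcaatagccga

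PU.1 and C/EBP proteins are transcription factors of the myeloid lineage, and 4 promoters of members lower in Sirt6 cKO at an unadjusted p under 0.05, with and without a match, are shown beside that of Marco, whose groups overlapped. RefSeq promoter sequences on GRCm38.p6, from 250 bases before to 50 bases after the transcription start, were matched for 8 of the 10 members, and C1qa and Csf1r had no entry. The core PU.1 motif GAGGAA was searched on both strands and occurred in 28.3% of 32851 promoters of the same length. It was found once in the promoters of C1qb, C1qc, Marco and Cd5l and 2 times in that of Cd68, and it was not found in those of Lyz1, Lyz2 and Cd163. The C/EBP motif TTGCNNAA, also searched on both strands, occurred in 10.8% of promoters and was found once each in the promoters of Cd68 and Lyz1. No match of one motif overlapped a match of the other. Capitals mark the matches, with TTCCTC being GAGGAA on the other strand; the last 50 bases of each window lie downstream of the start.
C1qb (chr4:136886151-136886450, minus strand): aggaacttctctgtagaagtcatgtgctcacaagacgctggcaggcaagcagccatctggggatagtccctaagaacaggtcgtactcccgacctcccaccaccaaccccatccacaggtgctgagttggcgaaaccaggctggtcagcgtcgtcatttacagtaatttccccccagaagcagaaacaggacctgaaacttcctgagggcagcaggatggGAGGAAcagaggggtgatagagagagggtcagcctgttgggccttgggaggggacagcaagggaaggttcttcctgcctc
C1qc (chr4:136892865-136893164, minus strand): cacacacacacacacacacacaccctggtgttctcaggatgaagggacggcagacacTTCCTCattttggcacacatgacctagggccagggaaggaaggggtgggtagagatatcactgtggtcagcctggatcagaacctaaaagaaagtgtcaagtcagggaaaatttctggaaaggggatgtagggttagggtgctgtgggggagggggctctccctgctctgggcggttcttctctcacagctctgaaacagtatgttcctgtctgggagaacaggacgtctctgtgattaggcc
Cd68 (chr11:69666121-69666420, minus strand): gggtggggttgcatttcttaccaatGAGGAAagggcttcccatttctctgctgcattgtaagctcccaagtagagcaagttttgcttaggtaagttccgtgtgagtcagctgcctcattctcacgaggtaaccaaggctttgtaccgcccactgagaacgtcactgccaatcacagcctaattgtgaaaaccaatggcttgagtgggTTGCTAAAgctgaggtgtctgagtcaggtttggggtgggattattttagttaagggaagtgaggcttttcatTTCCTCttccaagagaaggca
Lyz2 (chr10:117282223-117282522, minus strand): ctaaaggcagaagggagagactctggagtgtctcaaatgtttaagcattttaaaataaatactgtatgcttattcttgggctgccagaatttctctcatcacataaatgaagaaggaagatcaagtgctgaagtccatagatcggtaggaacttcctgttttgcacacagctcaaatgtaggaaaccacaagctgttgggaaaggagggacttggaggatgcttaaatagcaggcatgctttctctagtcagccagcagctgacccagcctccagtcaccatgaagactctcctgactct
Marco (chr1:120504975-120505274, minus strand): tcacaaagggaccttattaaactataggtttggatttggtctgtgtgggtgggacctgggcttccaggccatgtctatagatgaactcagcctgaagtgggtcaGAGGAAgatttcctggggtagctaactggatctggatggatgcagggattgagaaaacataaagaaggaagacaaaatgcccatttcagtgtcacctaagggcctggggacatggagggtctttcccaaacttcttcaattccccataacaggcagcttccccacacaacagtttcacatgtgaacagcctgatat

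The levels of the members spread over more than 3 powers of 10 in TPM, the transcript level scaled for gene length and library size in which genes can be compared with each other. In the WT libraries the mean TPM was 7736 for Lyz2, 3374 for Lyz1, 571 for C1qa, 360 for C1qb, 238 for C1qc, 99.98 for Cd68, 52.9 for Csf1r, 14.5 for Marco, 4.56 for Cd163 and 4.43 for Cd5l. Lyz2 ranked 6 and 7 among all genes in WT 1 and 2 and 16 and 14 in Sirt6 cKO 1 and 2, and Lyz1 ranked 20, 19, 35 and 22 in the same libraries. Lyz2 was thus among the 20 most abundant transcripts of every library sorted for an epithelial surface. The C1q chains kept the order C1qa, C1qb, C1qc within each of the 4 libraries, but the values of neighbouring chains overlapped between the WT libraries. Cd163 and Cd5l exchanged places between the groups, with mean TPM of 2.62 and 4.14 in Sirt6 cKO.

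**Figure D1:**
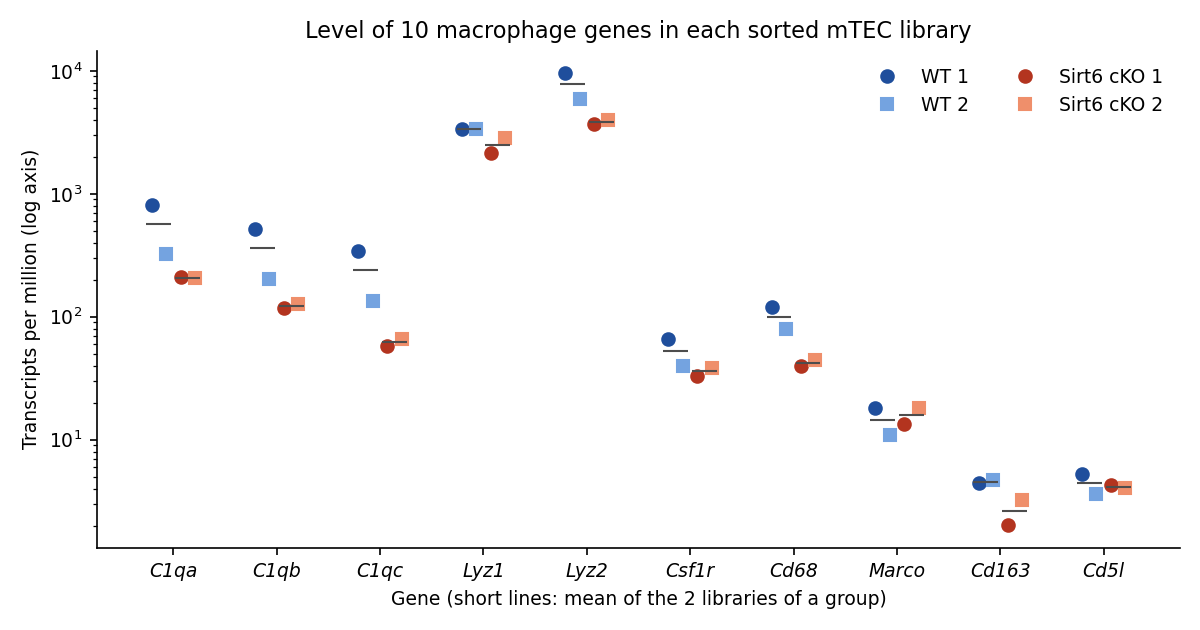
Level of each of the 10 macrophage genes in each library, in TPM on a log axis; circles and squares are single libraries and short lines are means of the 2 libraries of a group. WT 1 (dark blue) stood above WT 2 for the C1q chains, Lyz2, Csf1r, Cd68, Marco and Cd5l. Both Sirt6 cKO libraries (red, orange) lay below both WT libraries for 8 of the 10 genes but not for Marco and Cd5l. For Csf1r that gap was small, with 39.4 TPM in WT 2 and 38.6 TPM in Sirt6 cKO 2.

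The C1q chains had the largest differences. C1qa had 408 CPM in WT 1, 158 CPM in WT 2, 105 CPM in Sirt6 cKO 1 and 101 CPM in Sirt6 cKO 2. C1qb had 253, 96.3, 57.5 and 61.4 CPM in the same order, and C1qc had 166, 63.2, 28.1 and 31.9 CPM. In each case both Sirt6 cKO libraries were below both WT libraries, but WT 1 was 2.58, 2.63 and 2.62 times as high as WT 2 for C1qa, C1qb and C1qc, while the Sirt6 cKO libraries were within 1.13 times of each other. The log2 fold change of Sirt6 cKO over WT was -1.46 (SE 0.45, unadjusted p = 0.0205) for C1qa, -1.56 (SE 0.46, unadjusted p = 0.0181) for C1qb and -1.93 (SE 0.48, unadjusted p = 0.00858) for C1qc by the edgeR quasi-likelihood test. After Benjamini-Hochberg adjustment over all genes tested, edgeR gave an adjusted p of 0.541 for each of the 3. WT 1 decided much of the size: without it the log2 fold changes were -0.64, -0.72 and -1.10, and without WT 2 they were -1.98, -2.09 and -2.47. C1qa passed the unadjusted threshold neither without Sirt6 cKO 1 (unadjusted p = 0.0634) nor without Sirt6 cKO 2 (unadjusted p = 0.0544), and C1qb did not pass without Sirt6 cKO 1 (unadjusted p = 0.0665).

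The ratio of one chain to another was also read within each library. The TPM ratio of C1qc to C1qb was 0.660 in WT 1 and 0.662 in WT 2, although the summed C1q level of these libraries was 1676 and 661 TPM. In Sirt6 cKO 1 and 2 that ratio was 0.493 and 0.523, at summed levels of 388 and 398 TPM. The ratio of C1qc to C1qa showed the same order, with 0.418 and 0.411 in WT against 0.275 and 0.324 in Sirt6 cKO. C1qc transcripts were therefore a smaller part of the C1q transcripts in both Sirt6 cKO libraries, by a gap larger than the spread within either group. The ratio of C1qb to C1qa was 0.633 and 0.621 in WT and 0.558 and 0.620 in Sirt6 cKO, where the nearest libraries of the groups were almost level. With 2 libraries per group, the smallest p an exact two-sided permutation test can give is 0.333, so that these ratios are given as values.

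**Figure D2:**
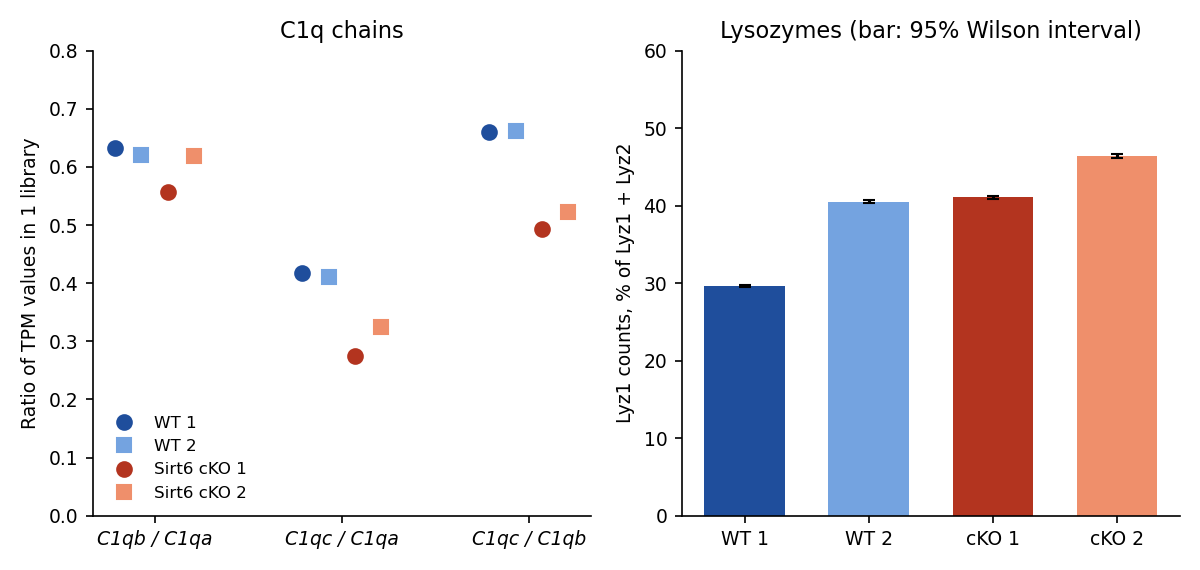
Left, the ratio of TPM values of 2 C1q chains within each library; right, Lyz1 counts as a percentage of Lyz1 plus Lyz2 counts in each library, with 95% Wilson intervals that cover counting error only. The C1qc to C1qb ratio was 0.660 and 0.662 in WT against 0.493 and 0.523 in Sirt6 cKO, and the Lyz1 share lay between 29.7% in WT 1 and 46.4% in Sirt6 cKO 2.

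Lysozyme transcripts were the most abundant of the 10. Lyz2 had 4647 CPM in WT 1, 2815 CPM in WT 2, 1778 CPM in Sirt6 cKO 1 and 1906 CPM in Sirt6 cKO 2. Both Sirt6 cKO libraries were below both WT libraries, with a log2 fold change of -1.02 (SE 0.25, unadjusted p = 0.00870; edgeR adjusted p = 0.541), which was -0.64 without WT 1. Lyz1 had 1962, 1920, 1239 and 1651 CPM in the same order, so that the WT libraries were nearly level and the Sirt6 cKO libraries lay below them. The log2 fold change of Lyz1 was -0.43 (SE 0.18) and did not pass the unadjusted threshold (unadjusted p = 0.0586). It was -0.66 without Sirt6 cKO 2 (unadjusted p = 0.00875), -0.23 without Sirt6 cKO 1 (unadjusted p = 0.193), and it passed with upper quartile scaling (unadjusted p = 0.0484), with library size alone (unadjusted p = 0.0329) and in limma on log2(TPM + 0.1) (unadjusted p = 0.0483).

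Taken as a pair, Lyz1 and Lyz2 held 0.674% and 0.493% of all counts in WT 1 and 2 and 0.291% and 0.346% in Sirt6 cKO 1 and 2. Lyz1 made up 29.7% of the pair in WT 1 (95% Wilson interval 29.6 to 29.8) and 40.5% in WT 2 (40.4 to 40.7). It made up 41.1% in Sirt6 cKO 1 (40.8 to 41.3) and 46.4% in Sirt6 cKO 2 (46.2 to 46.6). WT 1 stood apart in this split, whereas WT 2 and Sirt6 cKO 1 were close, and the split depends on how reads common to the copies were assigned.

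Csf1r, the receptor that macrophages need to survive, differed less than the C1q chains. It had 119 CPM in WT 1, 68.5 CPM in WT 2, 59.0 CPM in Sirt6 cKO 1 and 68.3 CPM in Sirt6 cKO 2. WT 2 and Sirt6 cKO 2 were level, and only WT 1 was far above the rest. The log2 fold change was -0.56 (SE 0.32, unadjusted p = 0.134), which became -0.13 without WT 1 and -0.90 without WT 2 (unadjusted p = 0.0225). The TPM of C1qa relative to Csf1r was 12.3 and 8.26 in WT 1 and 2 and 6.38 and 5.30 in Sirt6 cKO 1 and 2.

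Cd68, the lysosomal glycoprotein, had 56.0 CPM in WT 1, 36.0 CPM in WT 2, 18.3 CPM in Sirt6 cKO 1 and 20.4 CPM in Sirt6 cKO 2. Both Sirt6 cKO libraries were below both WT libraries. WT 1 was 1.56 times as high as WT 2, and WT 2 had 1.90 times the mean Sirt6 cKO level in TPM. The log2 fold change was -1.25 (SE 0.32, unadjusted p = 0.00922; edgeR adjusted p = 0.541), and it was -0.92 without WT 1. The unadjusted p was under 0.05 in all 12 alternatives for Cd68, C1qc and Lyz2, in 11 for C1qb and in 10 for C1qa.

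Among the scavenger receptors, Cd163 had 9.09 and 9.35 CPM in WT 1 and 2 and 4.16 and 6.53 CPM in Sirt6 cKO 1 and 2. It lay below WT in both Sirt6 cKO libraries, but the Sirt6 cKO libraries differed 1.57-fold and the log2 fold change of -0.79 (SE 0.41) did not pass the unadjusted threshold (unadjusted p = 0.111). Without Sirt6 cKO 1 it was -0.49 and without Sirt6 cKO 2 it was -1.16. Unlike for the C1q chains, WT 1 was not above WT 2 for Cd163. Marco had 16.5 CPM in WT 1, 9.74 CPM in WT 2, 12.1 CPM in Sirt6 cKO 1 and 16.5 CPM in Sirt6 cKO 2, and its log2 fold change was 0.13 (SE 0.40, unadjusted p = 0.764). Its sign turned without WT 2 (-0.21) and without Sirt6 cKO 2 (-0.13).

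Cd5l, also called AIM, is secreted by tissue macrophages under the control of the liver X receptors. It had 4.95 CPM in WT 1, 3.30 CPM in WT 2, 3.98 CPM in Sirt6 cKO 1 and 3.74 CPM in Sirt6 cKO 2, all within 1.5 times of each other. Its log2 fold change was -0.10 (SE 0.52, unadjusted p = 0.860), and it was 0.20 without WT 1 and -0.36 without WT 2. With standard errors of this size, neither Marco nor Cd5l is shown to be level between the groups.

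**Figure D3:**
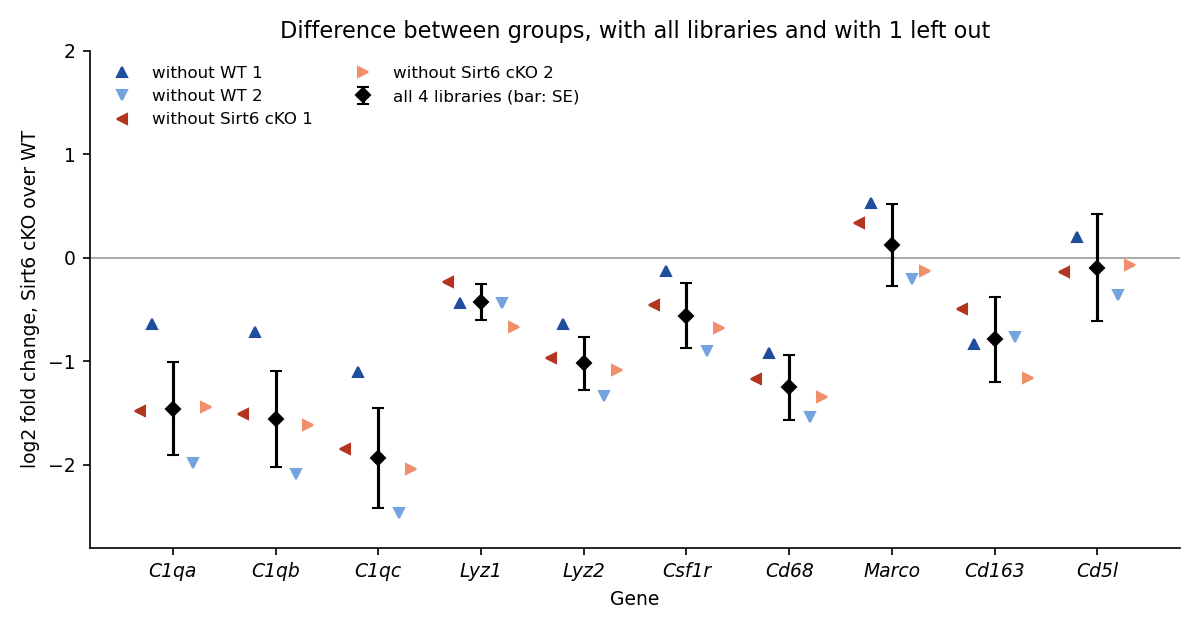
The log2 fold change of Sirt6 cKO over WT for each of the 10 macrophage genes with all 4 libraries (diamonds, bars are standard errors) and with each library left out (triangles). The C1q chains moved most when WT 1 was left out, from -1.46, -1.56 and -1.93 to -0.64, -0.72 and -1.10, and Marco and Cd5l crossed 0.

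At an adjusted p under 0.05 edgeR called 0 members lower, beside 0% of all genes (0 of 18547), whereas DESeq2 called 5 lower, namely the C1q chains, Lyz2 and Cd68, beside 0.823% of all genes. In DESeq2 their adjusted p was 0.0343 for C1qa, 0.0271 for C1qb, 0.00320 for C1qc, 0.0297 for Lyz2 and 0.0276 for Cd68. In the alternatives other than DESeq2, the adjusted p of these genes lay between 0.288 and 0.9996. Both Sirt6 cKO libraries were below both WT libraries for 8 of the 10, beside 20.3% of all genes. For Csf1r, counted among the 8, WT 2 and Sirt6 cKO 2 were level, with 68.5 and 68.3 CPM. The median log2 fold change was -0.90 over the 10 genes, with 9 of them negative, and -0.0047 over all genes, with 9343 of 18547 negative. Leaving out 1 library moved the count of lower members between 3 (without Sirt6 cKO 1) and 6, and without Sirt6 cKO 1 the corresponding share of all genes was 1.61%.

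Some of the other macrophage genes were also lower. Of 30 further macrophage genes, 29 were tested, 9 were lower and 1 was higher at an unadjusted p under 0.05, beside 3.32% and 5.27% of all genes, and their median log2 fold change was -0.54. Ms4a7, a membrane protein of mature tissue macrophages, had 46.5 and 22.3 CPM in WT 1 and 2 and 6.28 and 7.76 CPM in Sirt6 cKO 1 and 2 (log2 fold change -2.29, SE 0.45, unadjusted p = 0.00299). Spic, the transcription factor of the red pulp macrophages that recycle iron, had 22.9 and 17.0 CPM in WT and 6.84 and 8.48 CPM in Sirt6 cKO (-1.38, SE 0.34, unadjusted p = 0.00836). Timd4, a receptor for phosphatidylserine on dying cells, had 20.8 and 13.8 CPM in WT and 4.82 and 7.09 CPM in Sirt6 cKO (-1.54, SE 0.40, unadjusted p = 0.0104, but unadjusted p = 0.0561 without Sirt6 cKO 1). The other 6 lower genes were Lgmn, Slc40a1, Clec4n, Fcgr3, Mpeg1 and Emr1, the symbol listed for Adgre1, which encodes F4/80, with log2 fold changes from -2.42 to -0.65. Slc40a1 is the iron exporter ferroportin, Lgmn a lysosomal protease, Mpeg1 a pore-forming protein of phagosomes and Fcgr3 an Fc receptor for IgG. Leaving out WT 1 reduced the count of lower genes on this list to 3 and leaving out Sirt6 cKO 1 to 4.

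Not every macrophage gene was well represented. Trem2 had 44 and 0 reads in WT 1 and 2 and 0 and 12 in Sirt6 cKO 1 and 2, and Vsig4 had 4 and 0 in WT and 30 and 8 in Sirt6 cKO. Fcgr1, which encodes the CD64 receptor, had 27 to 46 reads per library, and Tyrobp, the signalling adaptor of many myeloid receptors, had 46 to 101. Emr1 had 1145 and 793 reads in WT and 323 and 540 in Sirt6 cKO. Cx3cr1 ranged from 91 reads in WT 2 to 1268 in WT 1, a spread within the WT group that was wider than for any member. Of the 30 further macrophage genes, 2 were thus at 0 in some library, Trem2 and Vsig4, and the others had reads in every library. Fcgr1 was low, at 0.37 to 0.62 TPM, whereas Tyrobp had 2.76 to 5.86 TPM, near the levels of Cd163 and Cd5l. Among the abundant ones, Lgmn had 3046 to 13385 reads per library and Mpeg1 had 6051 to 11576. The macrophage name of the 10 genes was borne out in part, and the cells of origin were not tested.

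Of 32 further complement genes, 31 were listed and 28 tested, 1 was lower and 3 were higher at an unadjusted p under 0.05, beside 3.32% and 5.27% of all genes, with a median log2 fold change of -0.37. The count of lower genes depended on the fit, with 4 in DESeq2 and 3 with upper quartile factors, with library size alone and in limma. Both Sirt6 cKO libraries were below both WT libraries for 12 of the 28, beside 20.3% of all genes. The lower gene was Cfp, properdin, which stabilises the alternative pathway convertase and is made by myeloid cells, with 167 and 105 CPM in WT and 59.2 and 61.8 CPM in Sirt6 cKO (-1.17, SE 0.28, unadjusted p = 0.00699). C2, the protease that joins C4 in the classical pathway convertase, had 67.5 and 46.1 CPM in WT and 110 and 101 CPM in Sirt6 cKO (0.89, SE 0.26, unadjusted p = 0.0164). C3, the central component, had 283 and 403 CPM in WT and 594 and 478 CPM in Sirt6 cKO (0.65, SE 0.23, unadjusted p = 0.0359). Calr, calreticulin, a binding partner of the C1q collagen tail, was the other higher gene (0.44, SE 0.17, unadjusted p = 0.0433). All 3 of the higher genes missed the threshold when some library was left out: C2 without WT 2 (unadjusted p = 0.0670) or Sirt6 cKO 1 (unadjusted p = 0.0659), C3 without WT 1 (unadjusted p = 0.157) or Sirt6 cKO 1 (unadjusted p = 0.146), and Calr without WT 1 (unadjusted p = 0.0732), WT 2 (unadjusted p = 0.152) or Sirt6 cKO 1 (unadjusted p = 0.181).

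All of 19 ligands, relatives and binding partners of the members were tested, with a median log2 fold change of 0.0025. At an unadjusted p under 0.05, 1 was lower and 3 were higher, beside 3.32% and 5.27% of all genes. Hp, haptoglobin, whose complex with haemoglobin is the ligand of Cd163, had 45.5 and 41.6 CPM in WT and 24.8 and 18.4 CPM in Sirt6 cKO (-1.01, SE 0.28, unadjusted p = 0.0131, but unadjusted p = 0.0736 without Sirt6 cKO 2). Hmox1, the enzyme that breaks down the haem taken up through Cd163, was higher, with 156 and 157 CPM in WT and 297 and 296 CPM in Sirt6 cKO (0.92, SE 0.16, unadjusted p = 0.00158). Csf2rb, the shared beta chain of the receptors for GM-CSF and related cytokines, had 167 and 251 CPM in WT and 426 and 339 CPM in Sirt6 cKO (0.87, SE 0.26, unadjusted p = 0.0170), and it missed the threshold without WT 1 (unadjusted p = 0.0661) or Sirt6 cKO 1 (unadjusted p = 0.0762). Lamp5, a relative of Cd68 listed as 6330527O06Rik, had 0 reads in both WT libraries and 26 and 17 reads in Sirt6 cKO 1 and 2.

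Lyz1 is a marker of Paneth cells, and mTECs as a population express genes of many peripheral tissues, so the Paneth cell genes were read beside it. All 15 were listed and 10 tested, with a median log2 fold change of -0.95. At an unadjusted p under 0.05, 2 were lower and 0 were higher, beside 3.32% and 5.27% of all genes. Reg3g, an antibacterial lectin of the gut, had 455 and 543 CPM in WT and 214 and 195 CPM in Sirt6 cKO (-1.29, SE 0.17, unadjusted p = 0.000502). Itln1, intelectin, had 39.9 and 40.3 CPM in WT and 20.2 and 15.5 CPM in Sirt6 cKO (-1.17, SE 0.28, unadjusted p = 0.00692). Of the 15 genes, 5 were at 0 in some library, and 1 of these was at 0 in all libraries. The Defa genes of the list had few reads. Defa21 had 53 and 76 reads in WT 1 and 2 and 24 and 17 in Sirt6 cKO 1 and 2. No other listed Defa gene had more than 39 reads in any library, and the median above takes in such genes. The summed level of the list was 559 and 677 CPM in WT 1 and 2 and 324 and 305 CPM in Sirt6 cKO 1 and 2. Reg3g made up most of that sum, and Mmp7, the next most abundant and named after its values were seen, had 56.6 and 81.5 CPM in WT and 86.8 and 91.1 CPM in Sirt6 cKO. Here WT 2 was above WT 1, the reverse of Lyz2, and the part of this list in the Lyz1 difference was not tested.

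Most marker lists of the other cell types that could be present overlapped between the groups in summed CPM. The median log2 fold change was -1.33 for erythroid genes, -0.95 for the Paneth cell genes and -0.50 for thymocytes, beside -0.54 for the further macrophage genes. It was between -0.28 (dendritic cells) and 0.33 (mTECs) for the other cell type lists. Of the 12 thymocyte markers, 9 were negative, and 5 had both Sirt6 cKO libraries below both WT libraries, beside 20.3% of all genes. Calls in these lists stand beside 3.32% lower and 5.27% higher of all genes. The summed level of 10 markers of all blood-derived cells was 4842 and 4406 CPM in WT 1 and 2 and 4553 and 4077 CPM in Sirt6 cKO 1 and 2, with 1 of 10 lower and 0 higher (Arhgdib, -0.59, which missed the threshold without WT 1, unadjusted p = 0.102, or Sirt6 cKO 2, unadjusted p = 0.114). The 14 listed markers of monocytes and neutrophils summed to 1767 and 1306 CPM in WT and 1534 and 1228 CPM in Sirt6 cKO, with 0 lower and 1 higher (Vcan, 1.95). The 14 dendritic cell markers, with 0 called in either direction and Bst2 as the most abundant (-0.34), summed to 695 and 515 CPM in WT and 616 and 511 CPM in Sirt6 cKO. In these 3 lists WT 1 was the highest library and Sirt6 cKO 1 the next, so that the groups overlapped. The summed level of the 10 macrophage genes, in contrast, was 7641 and 5179 CPM in WT and 3305 and 3867 CPM in Sirt6 cKO, without overlap, and most of it was Lyz1 and Lyz2. Without these, the sum of the other 8 was 1891 and 800 TPM in WT and 480 and 506 TPM in Sirt6 cKO, also without overlap.

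The 12 thymocyte markers summed to 1508 and 1075 CPM in WT and 1244 and 766 CPM in Sirt6 cKO, with 1 lower (Cd2, -0.56, unadjusted p = 0.0339, lost without WT 1, unadjusted p = 0.136, or either Sirt6 cKO library, unadjusted p = 0.130 and unadjusted p = 0.0838). The 7 listed B cell markers summed to 230 and 194 CPM in WT and 240 and 194 CPM in Sirt6 cKO, with 1 higher (Blk, 0.87, unadjusted p = 0.0548 without Sirt6 cKO 2), and Pax5 was at 0 in WT 1 and in Sirt6 cKO 2. Of 6 listed erythroid genes 5 were tested and 2 were lower, Hba-a2 (-1.56) and Beta-s (-1.33, lost without WT 2, unadjusted p = 0.177, or either Sirt6 cKO library, unadjusted p = 0.113 and unadjusted p = 0.122), with sums of 78.3 and 99.5 CPM in WT and 57.6 and 73.8 CPM in Sirt6 cKO. The 10 fibroblast and endothelial markers had 0 calls, with Dcn as the most abundant (-0.17). The 14 mTEC markers summed to between 16079 and 17869 CPM in every library, with Ccl21a lower (-2.37) and 4 higher, among them Spib (1.13), Cd80 (0.94) and Aire (0.65, lost without WT 1, unadjusted p = 0.0815, or Sirt6 cKO 2, unadjusted p = 0.0800). Of 8 markers of cortical epithelium, 0 were lower and 2 were higher, Dll4 (1.08) and Ly75 (1.14), and both missed the threshold when some library was left out (Dll4 without WT 2, unadjusted p = 0.0548, or Sirt6 cKO 2, unadjusted p = 0.0619; Ly75 without WT 1, unadjusted p = 0.0891, WT 2, unadjusted p = 0.0505, or Sirt6 cKO 1, unadjusted p = 0.122). The part of these lists in the differences of the macrophage genes was not tested.

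**Figure D4:**
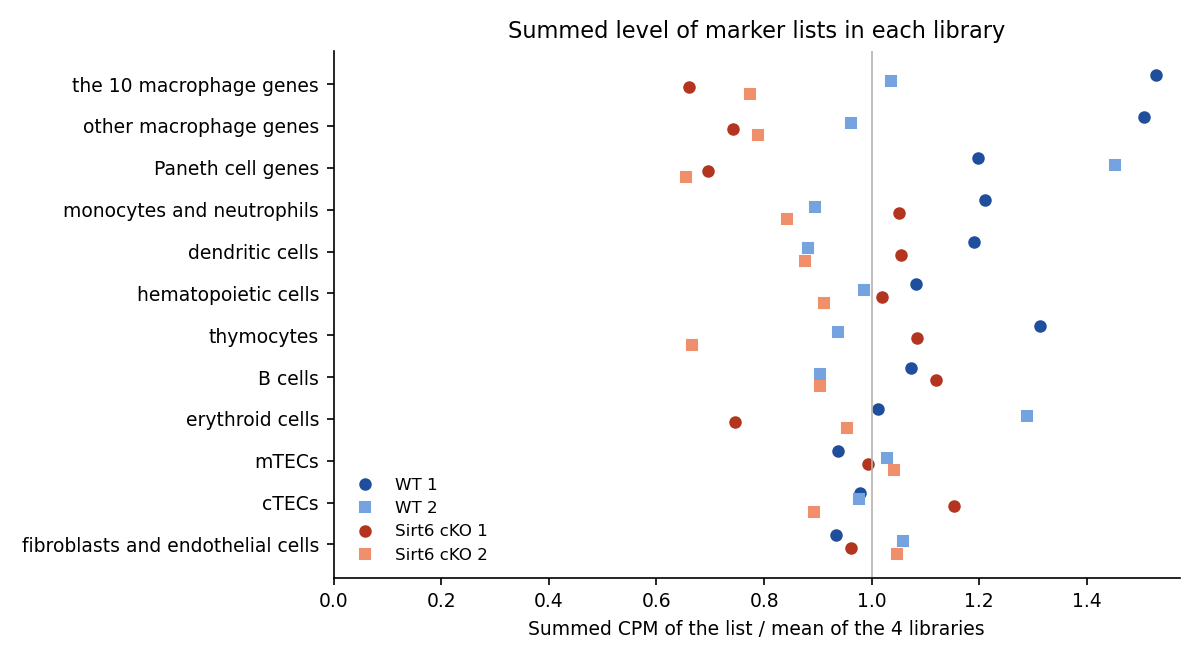
Summed CPM of each marker list in each library, divided by the mean of the 4 libraries. The 10 macrophage genes, the further macrophage genes, the Paneth cell genes and the erythroid genes had both Sirt6 cKO libraries (red, orange) below both WT libraries (blue), while the lists of dendritic cells, monocytes and neutrophils, all blood-derived cells, B cells and mTECs overlapped between the groups.

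The genes whose pattern over the 4 libraries was most like that of the summed C1q chains were sought among 12428 genes with a mean of at least 5 CPM. Likeness was the root mean square distance between log2(CPM + 0.5) values centred on each gene's mean. The 10 nearest were Clec7a, Camk1, Ticam2, Clec5a, Fcgr2b, Fcgr3, Efcab5, Tmem200a, Cd209f and Clca4, at distances from 0.124 to 0.220. Among these 10, only Fcgr3 was also on the lists above. Clec7a is the beta-glucan receptor Dectin-1, Clec5a a myeloid lectin receptor, and Fcgr2b and Fcgr3 are Fc receptors for IgG. The rest of the 10, among them Camk1, Efcab5, Tmem200a and Clca4, were not assigned to a cell type, so the neighbours are not shown to be myeloid as a set. Clec7a had 67.9 and 27.6 CPM in WT 1 and 2 and 19.0 and 18.9 CPM in Sirt6 cKO 1 and 2, with the same high WT 1 value as C1q. A pattern over 4 libraries holds few independent points, and these genes share the libraries, so the order is a description.

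The 10 genes nearest to Cd68 were Crisp1, Ms4a6b, Cfp, Slfn1, Cd38, Gm4902, Vwa3a, Prss34, Slc40a1 and Spic, at distances from 0.0370 to 0.107. Cfp, Slc40a1 and Spic were also on the lists above. Of the members, Lyz2 lay closest to Cd68, at 0.117, and the distances of the C1q chains to it were 0.275 to 0.387. From the summed C1q chains, Cd68 was at 0.289, Lyz2 at 0.3199, Csf1r at 0.503, Cd163 at 0.630, Lyz1 at 0.694, Cd5l at 0.740 and Marco at 0.826. The members thus differed in the shape of their pattern: the C1q chains ran together with a high WT 1, Lyz2 and Cd68 with a smaller gap between the WT libraries, Lyz1 and Cd163 with level WT libraries, and Marco and Cd5l without a step between the groups.

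**Figure D5:**
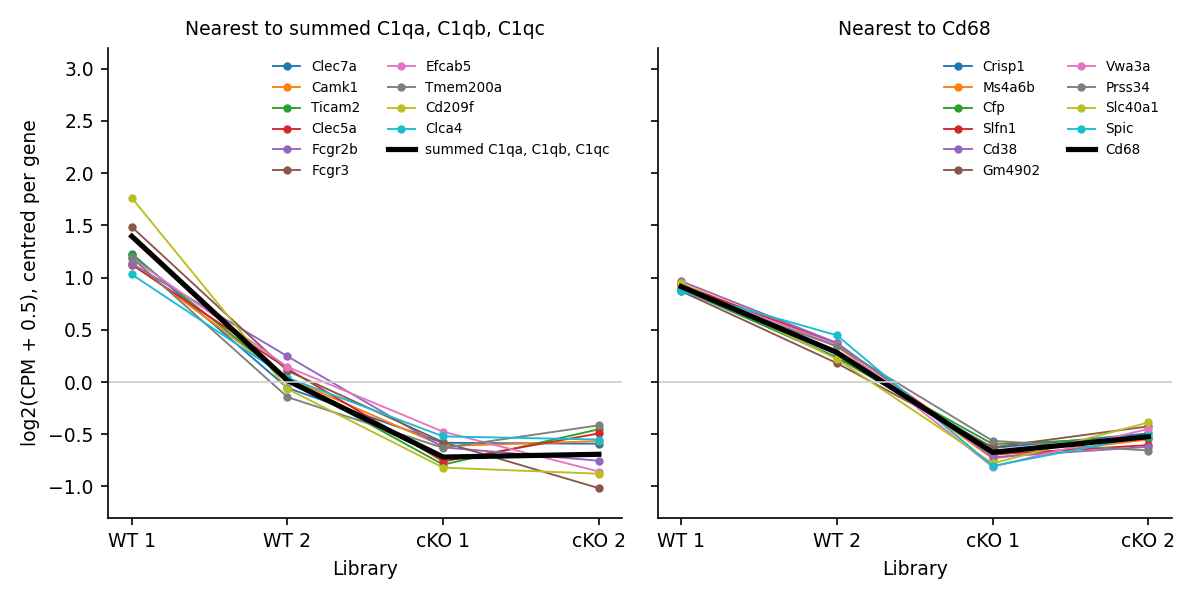
The log2(CPM + 0.5) values of the 10 genes nearest in pattern to the summed C1q chains (left) and to Cd68 (right), each centred on its mean over the 4 libraries, with the macrophage genes themselves as the thick black line; lines join the values of 1 gene. The left panel falls steeply from WT 1 to WT 2 and then to the Sirt6 cKO libraries, and the right panel has its main step between WT 2 and Sirt6 cKO 1.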

How the data were processed

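The series holds total RNA sequencing of 4 libraries of sorted mTECs, grouped by the genotype in the labels. As the authors describe, reads were trimmed with Trim Galore, aligned to mm10 with HISAT2 (version 2.1.0) and quantified with StringTie (version 1.3.3), both versions per the submitters' processing notes. The deposited count table gives raw counts per gene, and the deposited TPM files give levels that the authors scaled for gene length and library size. The annotation and strand setting were not given in the sources used here.

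Counts were fitted in edgeR 4.0.16 (R 4.3.3) with TMM factors, filterByExpr (minimum count 10, minimum total 15), the quasi-likelihood test and Benjamini-Hochberg adjustment over 18547 genes, which left a common biological coefficient of variation of 0.557. CPM values are TMM-scaled. SE is the log2 fold change divided by the square root of F. Alternatives were DESeq2 1.42.0, no filter, a TPM filter of 0.1, upper quartile factors, library size alone, a replicate block, limma 3.58.1 on log2(TPM + 1) and log2(TPM + 0.1), and each library left out. The scripts were checked on simulated counts.

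The members and gene lists were chosen with earlier results of these data known. Genes named were the 10 members and Sirt6, up to 3 genes per direction and list with the smallest unadjusted p under 0.05 (the most abundant gene where none passed), and the 10 genes nearest in pattern to the summed C1q chains and to Cd68. The other 6 lower macrophage genes and the macrophage genes with few reads were named after their values were seen, as were Ptprc, Epcam, Pax5 and Defa21. List symbols were matched through RefSeq synonyms. Promoter sequences came from RefSeq on GRCm38.p6, and coordinates and transcripts from GENCODE M21 on GRCm38. The sequence of Csf1r is not printed. The values of the higher gene among the other macrophage genes are not reported here.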

Additional observations from a re-analysis of the deposited data

How the results depend on the processing

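The C1q chains, Lyz1, Lyz2, Csf1r, Cd68 and Cd163 were lower in Sirt6 cKO under all 12 alternatives. The log2 fold change of Marco turned negative without WT 2 (-0.21) and without Sirt6 cKO 2 (-0.13), with a range over the left-out libraries of -0.21 to 0.53, and that of Cd5l turned positive without WT 1 (0.20), with a range of -0.36 to 0.20. Members lower at an unadjusted p under 0.05 numbered 3 to 6 when a library was left out, and those lower at an adjusted p numbered 5 in DESeq2 against 0 in edgeR. Lower genes among the other macrophage genes numbered 3 to 11 when a library was left out. Lower complement genes numbered 1 in edgeR and 4 in DESeq2, 2 with the TPM filter, 3 with upper quartile factors, 3 with library size alone, 3 in each limma fit and 2 to 3 when a library was left out. The cause of these shifts was not tested, except that leaving out a library left an arm with 1 sample, which is assumed to vary like the other group.

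Of all genes called at an unadjusted p under 0.05, 61.4% were higher with TMM factors, 48.4% with upper quartile factors and 46.2% with library size alone. The last 2 scalings moved the median log2 fold change of all genes to -0.086 and -0.093, under 0.1. The deviations of same-numbered libraries correlated at -0.051 over all genes tested, which cannot show whether these libraries were prepared as pairs. The summed markers of blood-derived cells, thymocytes and dendritic cells were higher in replicate 1 than in replicate 2 in both groups. The sum of the 10 macrophage genes was not. With a replicate block, 5 members and 7 other macrophage genes were lower and the calls over all genes went from 615 lower and 977 higher to 449 and 697. With 2 libraries per group, differences in Marco, Cd5l, Csf1r and Cd163 of the size of their standard errors could not be resolved.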
